A study of Homo sapiens with 4 samples.

Results

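The respiratory chain of human embryonic stem cells was followed through the mRNAs of 58 genes, chosen by name as the 13 protein genes of mitochondrial DNA and a list of nuclear genes, out of 60483 gene identifiers in the count tables. The nuclear genes comprised 40 subunit genes (19 of complex I, 4 of complex II, 6 of complex III and 11 of complex IV) and 5 genes that do not encode chain subunits. Those 5 were ATP5IF1, TFAM, POLRMT, TWNK and LRPPRC. Of the 13 mitochondrial genes, 7 encode subunits of complex I, 1 of complex III, 3 of complex IV and 2 of complex V. The cells were of the human embryonic stem cell line H9, listed in the labels as WA09, in 2 groups of 2 libraries: cells labelled SLC35F2 KO and cells labelled control. The labels do not give how the knockout was made, whether the KO libraries came from 1 clone or several, or whether replicates were separate cultures. The p-values thus measure only the spread between these libraries, whose source is not known. Between the KO libraries it went beyond sampling noise, with 5520 reads of the gene CHCHD2 in KO 1 and 2 in KO 2. SLC35F2 is a membrane transporter through which the cytotoxic drug sepantronium enters cells.

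Oxidative phosphorylation is built from both genomes of the cell. Complex I oxidises NADH, complex II oxidises succinate, complex III passes electrons to cytochrome c, complex IV reduces oxygen, and complex V makes ATP from the proton gradient. Mitochondrial DNA is transcribed from both strands as long precursors that are cut into mRNAs at transfer RNAs, whereas each nuclear subunit gene has a promoter of its own, many of them with sites for NRF1, ETS-family factors and YY1. Pluripotent stem cells are known for high glycolysis beside a working respiratory chain.

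The libraries held 27824693 to 37978705 reads assigned to genes, and levels are given as CPM, reads scaled to a common library size after TMM factors, which are set so that most genes match between libraries. SLC35F2 itself had 12.1 and 9.65 CPM in KO 1 and KO 2, against 41.1 and 27.1 CPM in control 1 and control 2. Its log2 fold change was -1.65 ± 0.35 (SE) with an adjusted p of 0.58 in edgeR's quasi-likelihood test, and adjusted p = 0.00954 in DESeq2 and 0.00736 with the replicate number as a block. Of 8 pluripotency markers, none was at 0, and their summed level was 7579 and 5379 CPM in KO 1 and KO 2 and 6979 and 7147 CPM in control 1 and control 2. Among them, NANOG had 46.2 and 19.1 CPM in KO 1 and KO 2, against 61.2 and 64.7 CPM in control 1 and control 2. Its log2 fold change was -0.95 ± 0.40 (SE, edgeR unadjusted p = 0.0438, adjusted p = 0.997). NANOG thus had both KO libraries below both controls and LIN28A had both above. The groups overlapped for the pluripotency markers other than NANOG and LIN28A. Markers of other cell types also differed between libraries of the same group. The 8 fibroblast markers summed to 154 and 793 CPM in the KO libraries and 262 and 526 CPM in the controls, where DCN had 0 reads in KO 2 and both controls and LUM had 0 reads in KO 1. The 6 neuroectoderm markers summed to 630.2 and 1146 CPM in the KO libraries and 587 and 911 CPM in the controls. The 7 mesendoderm markers summed to 3.45 and 0.819 CPM in the KO libraries and 4.69 and 5.91 CPM in the controls, and the 7 trophoblast and amnion markers to 18.1 and 19.4 CPM and to 14.7 and 28.96 CPM in the same order. In the trophoblast list, where KRT7 made up most of the sum in KO 1, KO 2 and control 1, GATA2 had 3 and 5 reads in KO 1 and KO 2, against 19 and 305 reads in control 1 and control 2. Its log2 fold change was -5.08 ± 1.55, which DESeq2 (adjusted p = 0.00275) and the replicate block (edgeR adjusted p = 0.00338) called and the reported edgeR fit did not (adjusted p = 0.997). Without control 2 the log2 fold change of GATA2 was -1.93. TFAP2A had 5 and 33 reads in KO 1 and KO 2, against 7 and 118 reads in control 1 and control 2. HAND1, which did not pass the filter, had 0 and 3 reads against 1 and 79 reads in the same order. GATA3 was instead highest in KO 2, with 52 reads, against 33 reads in control 2. No other marker of these 5 lists was called by edgeR, DESeq2, limma-voom or with the block. SOX17 had 0 reads in KO 2, MESP1, GATA3 and HAND1 had 0 reads in KO 1, and CGA had 0 reads in all 4 libraries. In bulk RNA, fewer cells of a type and less RNA per cell cannot be told apart, and the part of these markers in the levels below was not tested.

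Of the 58 members, 57 passed the filter on low counts, and none was called at an adjusted p under 0.05. In the same edgeR fit, 5 of 19027 genes (0.0263%) were called. No member reached an unadjusted p under 0.05 either, against 4.06% of all genes, and the smallest unadjusted p of a member was 0.200, for NDUFS8. DESeq2, limma-voom and the fit with a replicate block likewise called no member. DESeq2 called 0.273% of all genes, and the fit with the block 0.399%. The fitted 95% intervals of the members lay between -0.88 and 1.17 on the log2 scale. Differences inside a gene's interval were not told from none, and the absence of calls does not show equal levels.

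The 13 mitochondrial mRNAs were the most abundant members, and the KO libraries differed from each other for most of them. MT-CO1, the catalytic core subunit of complex IV (chrM:5904-7445 in GRCh38), had 10302 CPM in KO 1 and 23847 CPM in KO 2, against 14679 CPM in control 1 and 12891 CPM in control 2. MT-CO2, which receives electrons from cytochrome c, had 6428 and 10146 CPM in KO 1 and KO 2, against 9640.5 and 7460.2 CPM in control 1 and control 2. MT-CO3, the remaining mitochondrial subunit of complex IV, had 8275 and 15105 CPM in KO 1 and KO 2, against 12530.5 and 9386 CPM in control 1 and control 2. For each of these, KO 2 was the highest and KO 1 the lowest library, and both controls lay between them. The fitted log2 fold change was 0.31 ± 0.37 (SE) for MT-CO1, -0.05 ± 0.29 for MT-CO2 and 0.09 ± 0.32 for MT-CO3. Without KO 1, the log2 fold change of MT-CO1 was 0.80, with an unadjusted p under 0.05 (adjusted p = 0.202 in edgeR), and without KO 2 it was -0.42. In the fit without KO 1, 18.1% of all genes passed that unadjusted threshold and 5.31% were called, and MT-CO1 was the only member to pass it unadjusted.

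Complex I mRNAs of the mitochondrial genome divided into a steady pair and a more variable remainder. MT-ND1, a membrane-arm subunit next to the quinone site (chrM:3307-4262), had 2258 and 2547 CPM in KO 1 and KO 2, against 2549 and 2238 CPM in control 1 and control 2. MT-ND2 (chrM:4470-5511), a proton-pumping subunit, had 2175 and 2380.1 CPM in KO 1 and KO 2, against 2405 and 2319 CPM in control 1 and control 2. Across the 4 libraries the highest over the lowest level was 1.14 for MT-ND1 and 1.11 for MT-ND2, the smallest ratios of the 13. MT-ND4, also a proton pump, had 4603 and 7953 CPM in KO 1 and KO 2, against 6481 and 4934 CPM in control 1 and control 2. MT-ND5, the pump at the far end of the membrane arm, had 3484 and 6085 CPM in KO 1 and KO 2, against 5163 and 3125 CPM in control 1 and control 2. Both were highest in KO 2 with control 1 next, and the groups overlapped. MT-ND3 had 769 and 1145 CPM in KO 1 and KO 2, against 875 and 630.1 CPM in control 1 and control 2, and its log2 fold change of 0.35 ± 0.30 was the highest of the 13, with 0.03 to 0.62 when 1 library was left out. MT-ND4L had 888 and 1512 CPM in KO 1 and KO 2, against 1259 and 899 CPM in control 1 and control 2. MT-ND6, the only mRNA made from the light-strand promoter, had 625 and 1078 CPM in KO 1 and KO 2, against 955 and 499 CPM in control 1 and control 2. The counts of MT-ND6 ranked the libraries as those of MT-ND5 did, with KO 2 highest and control 2 lowest. MT-ND6 lies directly beside MT-ND5 on the opposite strand, and the strand option of the counting is not given. Reads of the other strand may thus be among the MT-ND6 counts, and the order cannot be assigned to the light strand.

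MT-CYB, cytochrome b of complex III, had 3261 and 3752 CPM in KO 1 and KO 2, against 3512 and 2303 CPM in control 1 and control 2. MT-ATP6, the subunit that forms the proton path of complex V, had 2944 and 4225 CPM in KO 1 and KO 2, against 4029 and 2537 CPM in control 1 and control 2. MT-ATP8, a small complex V subunit, had 878 and 1106 CPM in KO 1 and KO 2, against 1121 and 608 CPM in control 1 and control 2. Control 2 was the lowest library for all 3. Of the 13 genes, 10 were highest in KO 2 and 3 (MT-ND1, MT-ND2 and MT-ATP8) in control 1, while 6 were lowest in KO 1 and 7 in control 2. The groups overlapped for all 13, and the highest over the lowest library ranged from 1.11 to 2.31, with a median of 1.73 beside 1.83 over all genes tested and 1.54 over genes averaging 15 CPM or more. The median of the 13 thus lay below that of all genes and above that of abundant ones.

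**Figure D1:**
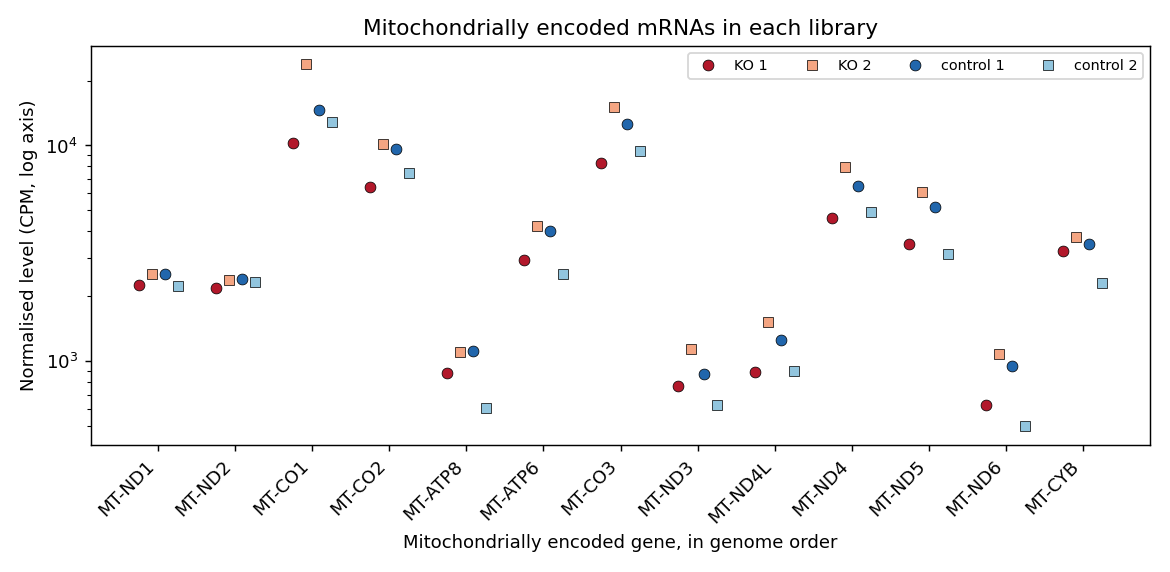
Level of each of the 13 mitochondrially encoded mRNAs in CPM (log axis) in genome order, 1 point per library with both KO libraries left of both controls. MT-ND1 and MT-ND2 lie close together in all 4 libraries, and MT-CO1 spans 10302 CPM in KO 1 to 23847 CPM in KO 2 with the controls at 14679 and 12891 CPM.

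Reads of MT-ATP8 and MT-ATP6 cannot be fully separated, because the genes share 46 bases (chrM:8527-8572), or 22.2% of MT-ATP8. Reads that the counting found ambiguous between genes were left out, so the level of MT-ATP8 may be too low. The shared stretch is shown because it is the same letters for both genes, with the start codon of MT-ATP6 in capitals, read 5′ to 3′ on the plus strand.
MT-ATP8 and MT-ATP6: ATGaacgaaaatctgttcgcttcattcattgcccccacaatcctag
MT-ND4L and MT-ND4 share 7 bases in the same way. Nuclear copies of mitochondrial DNA are a further source of shared reads. A cluster of such copies lies on chromosome 1, where MTCO1P12 (chr1:631074-632616) is 98.7% identical to MT-CO1, with 20 differing bases of 1542 aligned. The first 100-base stretch below is from MT-CO1 (chrM:6200-6299) and the second from MTCO1P12 (chr1:631370-631469), both on the plus strand of GRCh38 from GENCODE transcripts, and capitals mark the 4 positions at which they differ.
MT-CO1: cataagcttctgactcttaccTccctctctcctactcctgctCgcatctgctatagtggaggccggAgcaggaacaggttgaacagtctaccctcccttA
MTCO1P12: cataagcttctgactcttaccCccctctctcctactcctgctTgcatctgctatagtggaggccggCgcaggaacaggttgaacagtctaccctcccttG
Reads counted for MTCO1P12 were 0.274% and 0.260% of those for MT-CO1 in KO 1 and KO 2, against 0.248% and 0.293% in control 1 and control 2. Reads counted for MTATP6P1 came to 11.7% and 13.01% of those for MT-ATP6 in KO 1 and KO 2, against 12.3% and 12.7% in control 1 and control 2. For MTND2P28 they came to 2.29% and 2.28% of those for MT-ND2 in KO 1 and KO 2, against 2.53% and 2.54% in control 1 and control 2. These shares were nearly the same in every library while MT-CO1 itself varied by 2.31 times. Reads that mapped to more than 1 place had been left out of the counts.

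The makeup of the mitochondrial mRNA pool differed between the KO libraries and also between the controls. MT-CO1 made up 22.0% and 29.5% of the summed level of the 13 genes in KO 1 and KO 2, against 22.5% and 25.9% in control 1 and control 2. MT-ND1 made up 4.81% and 3.15% in KO 1 and KO 2, against 3.91% and 4.49% in control 1 and control 2. The ratio of MT-CO1 to MT-ND1 was 4.56 and 9.36 in KO 1 and KO 2, against 5.76 and 5.76 in control 1 and control 2. For this pair of genes the controls thus had matching ratios, with KO 1 below them and KO 2 above. The mean log2 ratio differed by 0.18 between KO and control (exact permutation test over libraries, two-sided, p = 1, where 2 against 2 cannot go below 0.333). MT-ND4 kept a share of 9.82% and 9.83% in KO 1 and KO 2, against 9.94% and 9.90% in control 1 and control 2. Its level therefore went with the sum of the 13 genes. For other genes the ratio to MT-ND1 differed between the controls. It was 1.54 and 2.39 for MT-ND5 in KO 1 and KO 2, against 2.03 and 1.40 in control 1 and control 2. For MT-CYB it was 1.44 and 1.47 in the KO libraries, against 1.38 and 1.03 in the same controls.

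**Figure D2:**
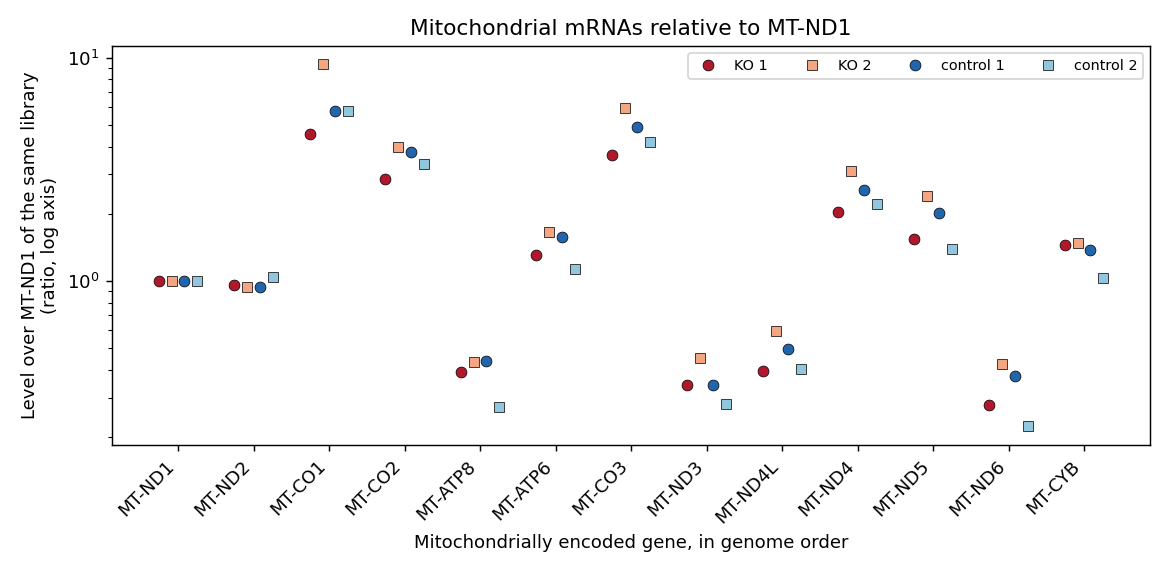
Level of each mitochondrially encoded mRNA divided by that of MT-ND1 in the same library (ratio, log axis), genes in genome order, 1 point per library. The MT-CO1 ratio is 4.56 in KO 1 and 9.36 in KO 2, and 5.76 in both controls.

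The ribosomal RNAs of the same genome, which are not members, had the same low and high KO library. MT-RNR1 had 557 and 1649.7 CPM in KO 1 and KO 2, against 834 and 1030.2 CPM in control 1 and control 2. MT-RNR2 had 4556 and 14212 CPM in KO 1 and KO 2, against 8049 and 8263 CPM in control 1 and control 2. Libraries made from polyadenylated RNA hold ribosomal and transfer RNA only in part, and of the 24 such mitochondrial genes 5 could be tested and none was called.

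Nuclear subunits varied less between libraries than the mitochondrial ones. Over the 39 nuclear subunit genes tested, the highest over the lowest library ranged from 1.17 (NDUFB3) to 1.802 (CYC1), with a median of 1.42, below both of those backgrounds. Both KO libraries lay above both controls for 9 of the 57 members, all nuclear (4 of complex I, 1 of complex II, 1 of complex III and 3 of complex IV), and below both for none. Over all genes tested, 15.8% lay above and 16.3% below in this way, and over genes that averaged 15 CPM or more, as all the tested members do, the shares were 23.6% and 9.12%. A share of 9 in 57 is thus near the background of all genes and below that of abundant genes. Among the 39 nuclear subunit genes alone, a share of 9 in 39 is near that of abundant genes. Among the members, 42 of 57 were highest in KO 2 (10 mitochondrial, 31 nuclear subunit genes and 1 of the others), beside 33.4% of all genes and 39.6% of abundant ones.

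Complex I subunits of the nuclear genome are described first. NDUFV1, which binds the flavin that takes electrons from NADH, was the most abundant of them with 139 and 146 CPM in KO 1 and KO 2, against 126 and 115 CPM in control 1 and control 2. NDUFS7, which holds the iron-sulfur cluster next to the quinone, had 59.2 and 69.5 CPM in KO 1 and KO 2, against 53.4 and 46.7 CPM in control 1 and control 2. NDUFS8, another iron-sulfur subunit of the same arm, had 96.1 and 99.5 CPM in KO 1 and KO 2, against 81.7 and 70.6 CPM in control 1 and control 2. The groups did not overlap for these 3 genes, nor for NDUFB8, an accessory subunit of the membrane arm with 37.5 and 35.6 CPM in KO 1 and KO 2, against 33.8 and 29.9 CPM in control 1 and control 2. NDUFS7 and NDUFS8 had the largest fitted differences of all members, 0.36 ± 0.27 and 0.36 ± 0.26 (SE, log2), with adjusted p = 0.997 for both in edgeR. NDUFB3, an accessory subunit of the membrane arm, had 30.6 and 35.7 CPM in KO 1 and KO 2, against 35.7 and 35.1 CPM in control 1 and control 2, a fitted difference of -0.09 ± 0.28. The 19 genes had a median fitted difference of 0.17 (range -0.09 to 0.36), and 18 were above 0. Opposite-strand genes cover 49.1% of the NDUFS7 exon bases, and genes of the same strand cover 33.8% of those of NDUFB8. Reads that the counting found ambiguous between genes (2.62% to 2.95% in a library) were left out, so these counts may lack reads. The strand option and annotation of the counting are not given, so reads of neighbours may also be among them.

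In complex II, SDHC, a membrane anchor, had 115 and 131 CPM in KO 1 and KO 2, against 104 and 103 CPM in control 1 and control 2, and the groups did not overlap. SDHA, the flavoprotein that oxidises succinate, had 71.6 and 114 CPM in KO 1 and KO 2, against 81.6 and 83.2 CPM in control 1 and control 2. SDHB, the iron-sulfur subunit, had 44.3 and 63.1 CPM in KO 1 and KO 2, against 50.9 and 46.4 CPM in control 1 and control 2. For SDHA and SDHB, as for MT-CO1, KO 1 was lowest and KO 2 highest. SDHD, the partner anchor, had 59.9 and 67.1 CPM in KO 1 and KO 2, against 62.2 and 42.6 CPM in control 1 and control 2. The fitted differences of the 4 genes ranged from 0.14 to 0.28, and without KO 2 those of SDHA and SDHB were -0.20 and -0.13. Complex II has no subunit encoded by mitochondrial DNA.

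In complex III, UQCRC1, a core protein, had 244 and 246 CPM in KO 1 and KO 2, against 231 and 153 CPM in control 1 and control 2. Its groups did not overlap, and its difference was 0.35 ± 0.29, with control 1 close to both KO libraries and control 2 apart from them. CYC1, cytochrome c1, had 123 and 170.3 CPM in KO 1 and KO 2, against 135 and 94.5 CPM in control 1 and control 2, with a difference of 0.35 ± 0.30. Leaving out 1 library at a time gave 0.08 to 0.68 for UQCRC1 and 0.10 to 0.64 for CYC1. UQCRB, a small subunit near the quinone site and the most abundant of the 6, had 225 and 305 CPM in KO 1 and KO 2, against 242 and 205 CPM in control 1 and control 2. CYC1 and UQCRB were both highest in KO 2 and lowest in control 2, with KO 1 below control 1. UQCRC2, UQCRFS1 (the Rieske iron-sulfur protein) and UQCRQ had differences of 0.12 to 0.17. Within complex III, MT-CYB, the single mitochondrial subunit, had a difference of 0.27 ± 0.28.

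In complex IV, COX7C, a small subunit, was the most abundant nuclear subunit gene with 451 and 601 CPM in KO 1 and KO 2, against 470.2 and 391 CPM in control 1 and control 2. COX4I1, the common isoform of subunit IV, had 281 and 304 CPM in KO 1 and KO 2, against 287 and 236 CPM in control 1 and control 2. NDUFA4, named for complex I and now assigned to complex IV, had 339 and 403 CPM in KO 1 and KO 2, against 324 and 301 CPM in control 1 and control 2. The groups did not overlap for NDUFA4, COX6B1 and COX6C and overlapped for the other 7 genes tested. COX6B1 faces the intermembrane space and had 160.0 and 183 CPM in KO 1 and KO 2, against 158 and 128 CPM in control 1 and control 2. COX6C had 122 and 161 CPM in KO 1 and KO 2, against 116 and 119 CPM in control 1 and control 2. COX5A, a subunit that faces the matrix, had 89.9 and 103 CPM in KO 1 and KO 2, against 111 and 93.0 CPM in control 1 and control 2, and was the only one of the 10 with a fitted difference below 0 (-0.08 ± 0.27).

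COX4I2 was the member that did not pass the filter. This isoform replaces COX4I1 in tissues such as lung and under low oxygen. It had 2 and 3 reads in KO 1 and KO 2, against 0 and 1 reads in control 1 and control 2. All 4 counts are at or under 3 reads, the limit that a count of 0 allows, so no fold is given. COX4I2 is known as a target of CHCHD2, a protein of the mitochondrial intermembrane space that also acts in the nucleus. CHCHD2 had 200.7 CPM (5520 reads) in KO 1 and 0.0585 CPM (2 reads) in KO 2, against 210.1 and 149 CPM (7927 and 5305 reads) in control 1 and control 2. KO 2 therefore had nearly no CHCHD2 RNA while it had the highest level of 42 of the 57 members. KO 1, with CHCHD2 at the level of the controls, had the lowest level of 16. Control 2, which also had CHCHD2 RNA, had the lowest level of 38. Over all genes tested, 33.4% were highest in KO 2, 24.8% lowest in KO 1 and 26.5% lowest in control 2. Over genes averaging 15 CPM or more, the shares were 39.6%, 18.2% and 41.3%. The relation of CHCHD2 to the members rests on 1 library and was not tested. CHCHD10, its paralog, had 7.49 and 11.3 CPM in KO 1 and KO 2, against 11.8 and 8.36 CPM in control 1 and control 2.

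**Figure D3:**
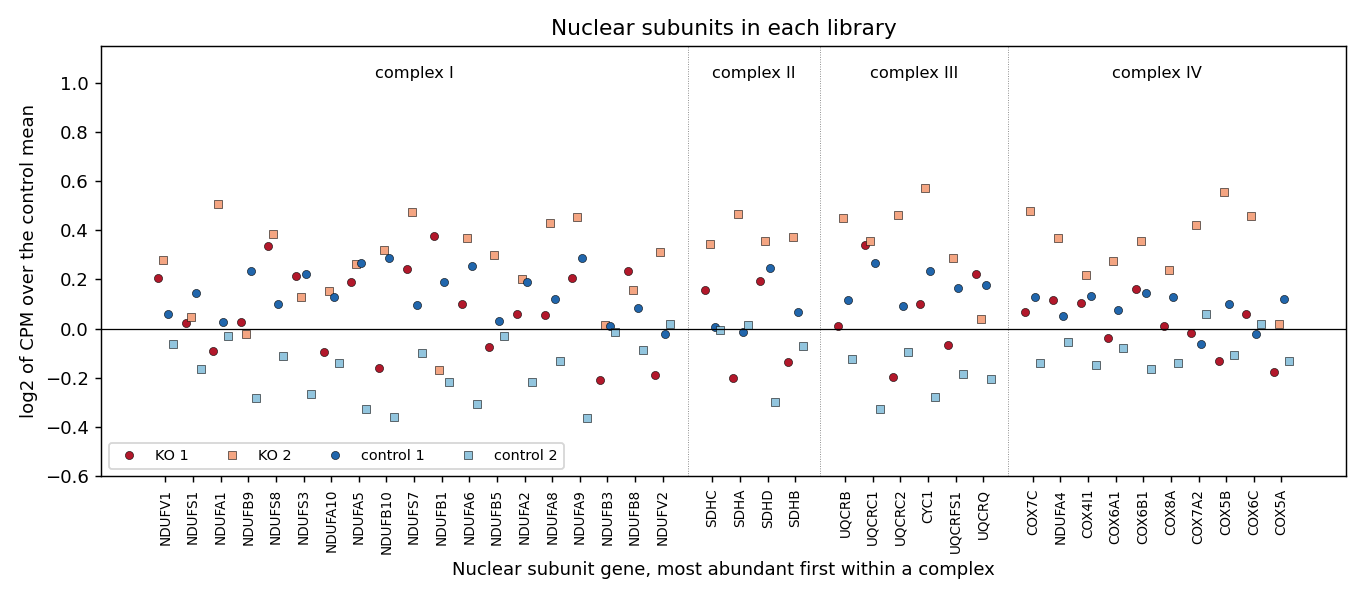
Level of each of the 39 tested nuclear subunit genes as log2 of CPM over the mean of the controls, by complex, 1 point per library with both KO libraries left of both controls. KO 2 is the highest library for 31 of the genes and control 2 the lowest for 28.

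The 2 genomes were compared within each library. The 13 mitochondrial genes summed to 46889.9 and 80881 CPM in KO 1 and KO 2, against 65198 and 49828 CPM in control 1 and control 2. The 40 nuclear subunit genes summed to 4414 and 5350.1 CPM in KO 1 and KO 2, against 4597 and 3855 CPM in control 1 and control 2. The ratio of the mitochondrial to the nuclear sum was 10.6 and 15.1 in KO 1 and KO 2, against 14.2 and 12.9 in control 1 and control 2. Both controls thus lay between the KO libraries, and the KO libraries stood farther apart (12.9 ± 3.18, SD, n = 2) than the controls (13.6 ± 0.890, SD, n = 2). The mean log2 ratio differed by -0.10 between KO and control (exact permutation test, two-sided, p = 1, smallest possible 0.333). The log2 sum differed by 0.11 for the mitochondrial genes (p = 1, exact permutation test) and by 0.21 for the nuclear subunit genes (p = 0.667, exact permutation test). Both sums were larger in KO 2 than in KO 1, and the mitochondrial one by more.

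**Figure D4:**
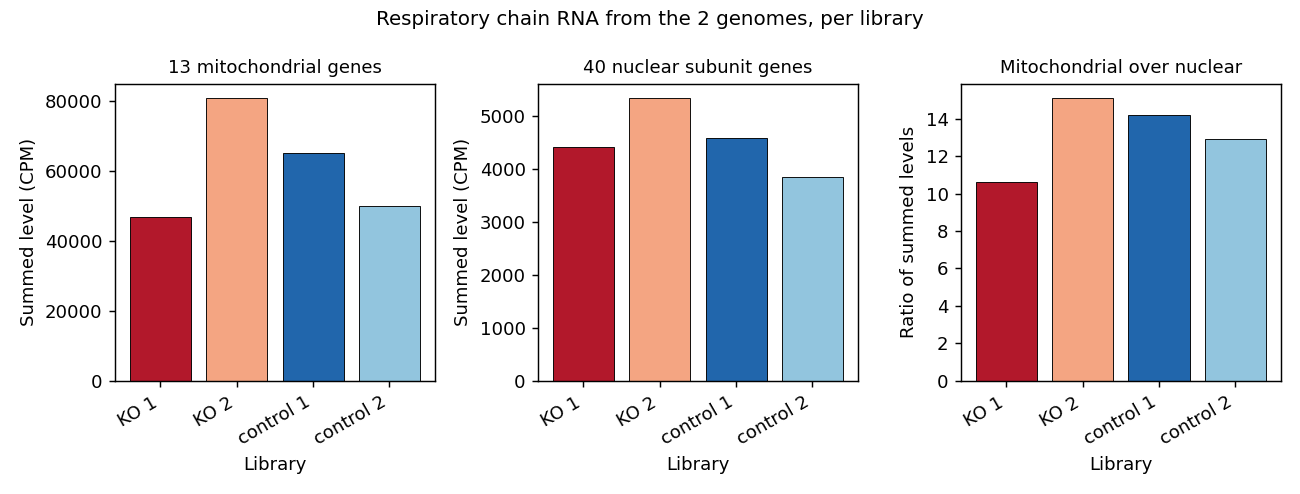
Summed level in CPM of the 13 mitochondrially encoded genes (left) and the 40 nuclear subunit genes (middle), and their ratio (right), 1 bar per library with no error bars because each bar is 1 library. The ratio is 10.6 in KO 1 and 15.1 in KO 2, with the controls at 14.2 and 12.9 between them.

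Within complexes I and IV the libraries had the same order, and complexes III and V each had an order of their own. For complex I the mitochondrial sum was 11.9 and 16.5 times the nuclear sum in KO 1 and KO 2, against 15.3 and 14.1 times in control 1 and control 2. For complex IV it was 12.7 and 20.0 times in KO 1 and KO 2, against 18.1 and 16.6 times in control 1 and control 2. For complex III, MT-CYB was 3.59 and 3.29 times the sum of the 6 nuclear members in KO 1 and KO 2, against 3.61 and 3.05 times in control 1 and control 2. For complex V, MT-ATP6 and MT-ATP8 together were 0.942 and 1.20 times the sum of 18 nuclear subunits that are not members in KO 1 and KO 2, against 1.303 and 0.977 times in control 1 and control 2. Control 1 was thus highest for both of these complexes, and KO 2 lay below KO 1 for complex III. Without MT-CO1, the remaining 12 mitochondrial genes summed to 36588 and 57034 CPM in KO 1 and KO 2, against 50519 and 36937 CPM in control 1 and control 2. KO 2 was still the highest library and KO 1 the lowest, with control 2 close to KO 1. All mitochondrial genes together took 5.15% and 8.97% of the assigned reads in KO 1 and KO 2, against 7.38% and 6.49% in control 1 and control 2.

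Levels between genes were compared per kilobase of the principal transcript. On that scale, in CPM per kb, the median mitochondrial gene stood 42.6 and 60.7 times above the median nuclear subunit gene in KO 1 and KO 2, against 58.2 and 48.7 times in control 1 and control 2. The median of the 7 mitochondrial complex I genes was 2224 and 3310.3 CPM per kb in KO 1 and KO 2, against 2667 and 2226 CPM per kb in control 1 and control 2. The lowest of the 3 mitochondrial complex IV genes had 6681 and 14833 CPM per kb in KO 1 and KO 2, against 9519.5 and 8360 CPM per kb in control 1 and control 2, and in every library this was above the highest mitochondrial complex I gene. Among nuclear members, the complex IV median was 202 and 261 CPM per kb in KO 1 and KO 2, against 216 and 180.4 CPM per kb in control 1 and control 2. The complex I median was 55.8 and 56.8 CPM per kb in KO 1 and KO 2, against 50.3 and 44.9 CPM per kb in control 1 and control 2. Complex II had medians of 34.2 and 47.1 CPM per kb in KO 1 and KO 2, against 38.7 and 32.2 CPM per kb in control 1 and control 2. Complex III had 76.9 and 97.8 CPM per kb in KO 1 and KO 2, against 87.8 and 67.4 CPM per kb in control 1 and control 2. Among the members, both genomes therefore had the complex IV median above the complex I median in all 4 libraries. This order applies to the listed members: the other complex IV genes COX7B and COX7A2L had 40.2 and 86.5 CPM per kb in KO 1 and 47.1 and 115 in KO 2, against 52.0 and 73.6 in control 1 and 36.3 and 74.8 in control 2. These levels depend on the transcript chosen: SDHC, NDUFS1 and NDUFA9 have principal transcripts of 13566, 11819 and 8363 bases in GENCODE 29, which lowers their level per kb.

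The genes that serve the mitochondrial genome or the chain without being part of it had no common direction. POLRMT, the mitochondrial RNA polymerase, had 114 and 94.4 CPM in KO 1 and KO 2, against 102 and 66.9 CPM in control 1 and control 2. TFAM, which packages mitochondrial DNA and starts its transcription, had 145 and 107 CPM in KO 1 and KO 2, against 147 and 92.1 CPM in control 1 and control 2. TWNK, the helicase of mitochondrial DNA replication, had 72.8 and 44.8 CPM in KO 1 and KO 2, against 59.9 and 71.6 CPM in control 1 and control 2. All 3 were lower in KO 2 than in KO 1, the reverse of the mitochondrial sum. LRPPRC, which stabilises mitochondrial mRNAs, had 323 and 371 CPM in KO 1 and KO 2, against 404 and 331 CPM in control 1 and control 2. ATP5IF1, the inhibitor that stops complex V from running backwards, had 70.7 and 83.6 CPM in KO 1 and KO 2, against 83.4 and 70.0 CPM in control 1 and control 2. The groups overlapped for each of the 5, and their median fitted difference was 0.0077. TWNK had the lowest difference of all members, -0.16 ± 0.31, and POLRMT the highest of these 5, 0.31 ± 0.30.

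Fitted differences over whole groups were small and depended on single libraries. The log2 difference was above 0 for 51 of the 57 members (11 of 13 mitochondrial, 37 of 39 nuclear subunit genes and 3 of the other 5), beside 52.8% of all genes and 67.1% of genes averaging 15 CPM or more. With library size alone as the scaling, 9 mitochondrial and 29 nuclear subunit genes were above 0, and with quantile normalisation 6 and 33. The median was 0.15 for the mitochondrial genes and 0.20 for the nuclear subunit genes (0.17, 0.21, 0.21 and 0.23 for complexes I to IV), beside 0.03 over all genes and 0.12 over genes averaging 15 CPM or more. Without KO 1 the mitochondrial median was 0.47 and the nuclear one 0.36, and without KO 2 they were -0.22 and 0.06. Without control 1 they were 0.43 and 0.32, and without control 2 -0.09 and 0.08. The sign of the mitochondrial median thus rested on which library was included, and the nuclear median stayed above 0 in these 4 fits. Leaving out 1 library changed the sign for 38 of the 57 members, namely 12 of 13 mitochondrial genes (all but MT-ND3), 22 of 39 nuclear subunit genes and 4 of the other 5.

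**Figure D5:**
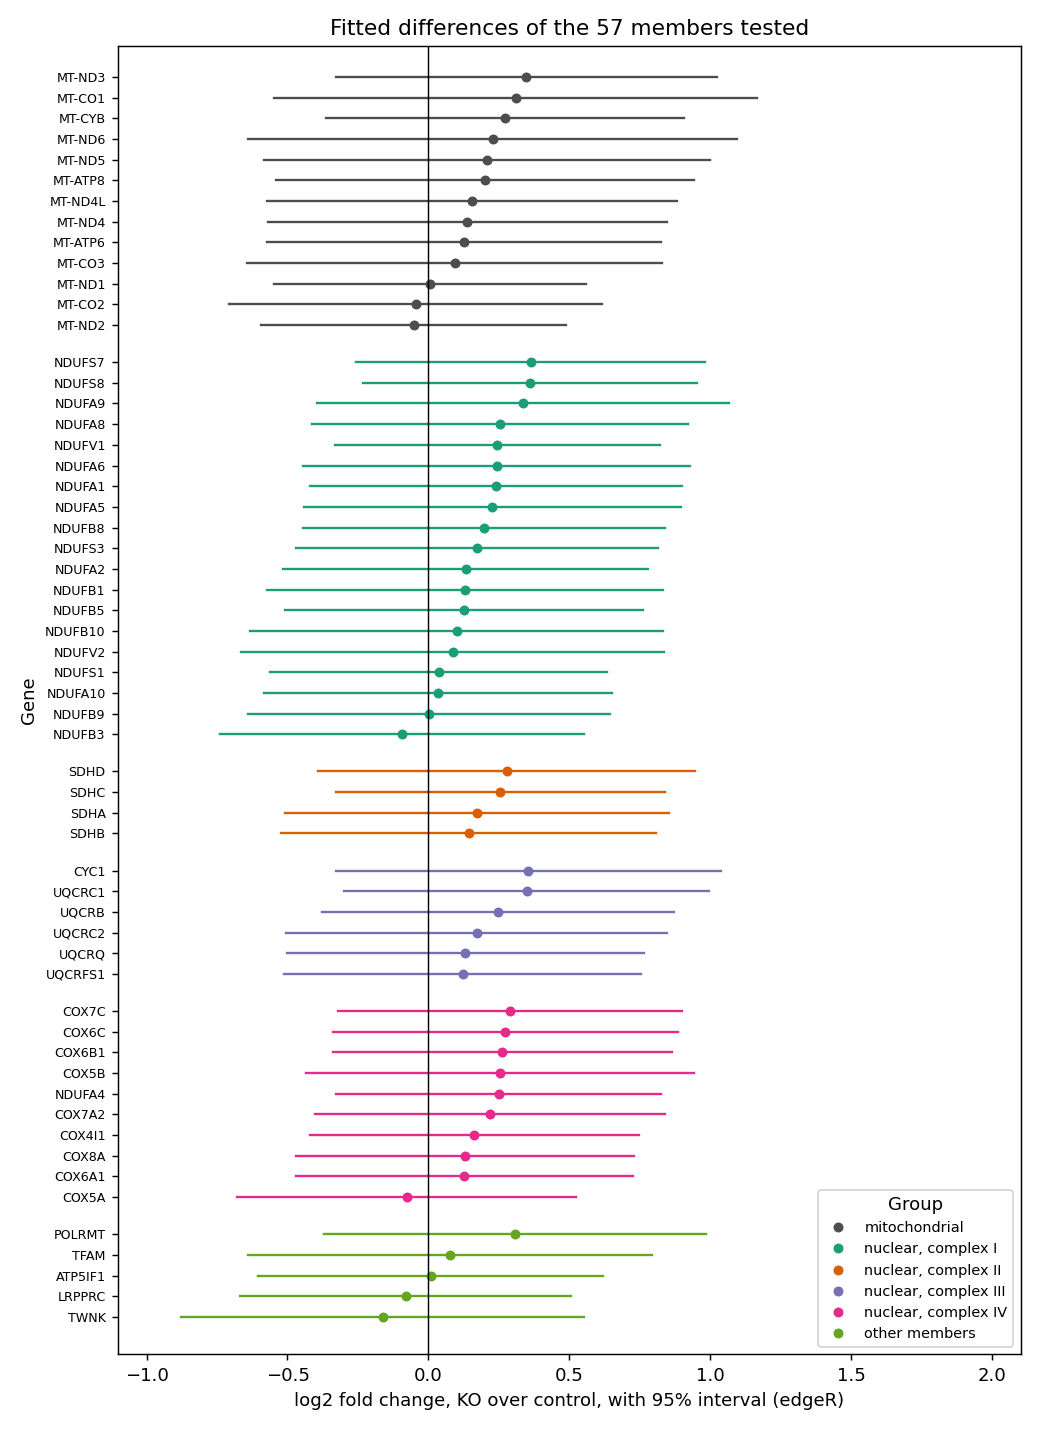
Fitted log2 fold change, KO over control, of each of the 57 tested members with its 95% interval from edgeR, grouped by genome and complex and sorted within a group. Every interval spans 0, and the points range from -0.16 (TWNK) to 0.36 (NDUFS7).

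Promoter sequences were looked at because nuclear subunit genes are known to share binding sites for a few factors. RefSeq promoter windows on GRCh38.p14, from 250 bases before to 50 bases after the gene start, were matched for 36 of the 45 nuclear members. The windows were searched on both strands for GCATGCGC (the NRF1 motif), CCGGAAG (ETS family) and AAGATGGC (YY1). GCATGCGC occurred in 8 of the 36 member windows (22.2%) and in 3.27% of 27305 windows of the same length. CCGGAAG occurred in 12 (33.3%) against 10.7% of all windows, and AAGATGGC in 5 (13.9%) against 3.03%. In all, 17 of 36 (47.2%) held at least 1 of them, against 15.6% of all windows. These letters describe the windows and are no evidence that a factor binds there. The 250 bases before the start are printed 5′ to 3′ along the gene for the members with the largest differences, NDUFS7 (chr19:1383657-1383906, plus strand) and NDUFS8 (chr11:68030431-68030680, plus strand), for POLRMT (chr19:633538-633787, minus strand), and for SDHB (chr1:17054033-17054282, minus strand), from the complex without mitochondrial genes. Capitals mark the NRF1 and ETS motifs on either strand. In GENCODE 29 the gene begins inside the printed window for NDUFS8, POLRMT and SDHB and before it for NDUFS7.
NDUFS7: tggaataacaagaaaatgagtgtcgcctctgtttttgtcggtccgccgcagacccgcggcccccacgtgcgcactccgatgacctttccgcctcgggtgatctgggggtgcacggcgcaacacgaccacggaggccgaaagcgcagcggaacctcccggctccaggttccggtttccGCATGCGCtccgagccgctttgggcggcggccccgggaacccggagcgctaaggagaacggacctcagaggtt
NDUFS8: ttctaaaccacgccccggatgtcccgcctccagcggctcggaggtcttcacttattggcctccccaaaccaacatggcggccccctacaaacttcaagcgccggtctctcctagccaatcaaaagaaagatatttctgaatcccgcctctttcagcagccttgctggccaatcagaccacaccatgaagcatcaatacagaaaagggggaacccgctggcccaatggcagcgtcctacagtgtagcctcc
POLRMT: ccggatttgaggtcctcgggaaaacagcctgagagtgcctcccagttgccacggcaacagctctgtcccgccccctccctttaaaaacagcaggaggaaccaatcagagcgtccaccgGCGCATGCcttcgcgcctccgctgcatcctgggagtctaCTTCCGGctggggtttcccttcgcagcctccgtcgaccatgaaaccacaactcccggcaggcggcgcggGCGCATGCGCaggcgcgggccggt
SDHB: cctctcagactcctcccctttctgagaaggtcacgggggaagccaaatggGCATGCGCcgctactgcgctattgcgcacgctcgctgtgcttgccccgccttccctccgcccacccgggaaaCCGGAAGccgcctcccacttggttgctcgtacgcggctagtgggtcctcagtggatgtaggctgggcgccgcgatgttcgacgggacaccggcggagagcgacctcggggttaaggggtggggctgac
NDUFS7 has 1 NRF1 motif, which begins 73 bases before the start, and NDUFS8 has none of the 3 motifs in this window. Whether the motifs bear on the fitted differences was not tested. POLRMT has NRF1 motifs 132, 24 and 22 bases before the start, of which the last 2 overlap as a palindrome, and an ETS motif at 93. SDHB has an NRF1 motif at 200 and an ETS motif at 128. The YY1 motifs of NDUFS7 and SDHB lie in the 50 bases after the start.

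The regulators of such sites gave no called gene, and NRF1 itself lay above both controls. NRF1 had 30.3 and 32.6 CPM in KO 1 and KO 2, against 22.8 and 18.2 CPM in control 1 and control 2 (log2 difference 0.62 ± 0.31, edgeR adjusted p = 0.997). PPARGC1A, a coactivator of mitochondrial biogenesis, had 0.837 and 1.26 CPM in KO 1 and KO 2, against 2.09 and 3.12 CPM in control 1 and control 2 (-1.29 ± 0.58, edgeR adjusted p = 0.997). The groups did not overlap for either gene. Of the 10 regulators tested, 2 had both KO libraries above both controls and 1 had both below. GABPA, an ETS factor, had 39.2 and 61.3 CPM in KO 1 and KO 2, against 42.1 and 34.1 CPM in control 1 and control 2.

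Other genes of the pathway were counted in fixed pathway lists, and none was called in any of them by edgeR, DESeq2, limma-voom or the fit with a replicate block. Of 18 further complex I subunits, 6 had both KO libraries above both controls and none below, with a median fitted difference of 0.21. NDUFA3 was the largest of them, with 48.9 and 67.7 CPM in KO 1 and KO 2, against 40.2 and 38.2 CPM in control 1 and control 2. The 3 further complex III subunits had a median of 0.15 with no gene on one side, and of 4 tested complex IV subunits and isoforms 1 (COX7A2L) lay above and none below, with a median of -0.01. Of 18 nuclear complex V subunits, 7 lay above and 2 below, with a median of 0.22. ATP5F1A, the alpha subunit of the catalytic head, had 883 and 1081 CPM in KO 1 and KO 2, against 845 and 714 CPM in control 1 and control 2. Of 48 assembly factors, 11 lay above and 1 below, with a median of 0.08, and 1 (ECSIT) had an unadjusted p under 0.05. ECSIT, a complex I assembly factor, had 46.3 and 71.7 CPM in KO 1 and KO 2, against 37.0 and 28.6 CPM in control 1 and control 2 (0.85 ± 0.32, adjusted p = 0.997).

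Of 27 genes for the upkeep of mitochondrial DNA and RNA, none lay above both controls and 4 lay below, with a median of 0.05, and 1 (MTERF1) had an unadjusted p under 0.05. MTERF1, a mitochondrial transcription termination factor, had 14.8 and 12.8 CPM in KO 1 and KO 2, against 21.6 and 24.7 CPM in control 1 and control 2 (-0.75 ± 0.33, edgeR adjusted p = 0.997). SLIRP, the partner of LRPPRC, had 107 and 69.8 CPM in KO 1 and KO 2, against 119 and 84.3 CPM in control 1 and control 2. Of 12 mitochondrial translation factors, none lay above and 2 below, with a median of -0.01. Of 11 genes of the CHCHD family and its membrane complex, 2 lay above and 1 below, with a median of 0.0035. Of 14 genes for mitochondrial import, membrane and matrix proteins, 1 lay above and 1 below, with a median of 0.05. CS, citrate synthase, had 218 and 213 CPM in KO 1 and KO 2, against 199 and 183 CPM in control 1 and control 2, and TOMM20, an import receptor, had 287 and 431 CPM in KO 1 and KO 2, against 349.9 and 320.3 CPM in control 1 and control 2. Of 11 tested nuclear copies of mitochondrial genes, none lay above and 1 below, with a median of 0.11. Beside the counts of these lists and of the regulators stand the background shares of 15.8% above and 16.3% below over all genes tested. Over genes averaging 15 CPM or more, the shares were 23.6% above and 9.12% below. The lists hold genes on both sides of 15 CPM.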

How the data were processed

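Polyadenylated RNA of SLC35F2 KO and control H9 cells was sequenced in 2 libraries a group, and titles gave the groups. The authors deposited 1 table of whole-number read counts per Ensembl gene for each library. HTSeq 0.11.0, STAR 2.6.0a, cutadapt 1.8.1, FastQC 0.11.7 and the GRCh38 (hg38) build are named in the submitters' processing notes. Quantile normalisation and a stranded mRNA kit are named in the labels' protocols, but the deposited counts are not normalised. The HTSeq strand option is not given in the sources used here, nor is the annotation release. Reads found ambiguous between genes stayed out of the counts, so overlapping genes may lack reads or hold those of a neighbour. Of the nuclear members, 11 share same-strand and 17 opposite-strand exon bases with another gene, and 28 have named pseudogenes.

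Reads assigned to no single gene (16.7% and 14.4% in KO 1 and KO 2, 17.8% and 20.3% in control 1 and control 2) stayed out of library sizes and tests. Names, positions and transcript lengths came from GENCODE 29 (93.8% of 60483 identifiers matched). KO was compared with control in edgeR 4.0.16 under R 4.3.3: TMM, filterByExpr with a minimum count of 10, robust quasi-likelihood F test, two-sided, Benjamini-Hochberg over 19027 genes, threshold 0.05. The scripts were tested on simulated data. Sums and ratios per library were compared with exact permutation tests (scipy 1.17.1). Dispersion was 0.132 (coefficient of variation 36.3%). Replicate counts differed by a chi-square of 124 per degree of freedom between the KO libraries and 54.6 between the controls, beyond sampling noise. Alternatives were DESeq2 1.42.0, limma-voom and quantile normalisation (limma 3.58.1), other scaling factors and filters, a replicate block and leaving out each library.

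Genes named by rule were all mitochondrial members, the 4 with the highest and the 4 with the lowest fitted differences, the most abundant nuclear subunit of each complex, the non-subunit members, COX4I1, COX4I2, SLC35F2, CHCHD2 and CHCHD10. Others were picked with their values in view. The members and lists were chosen with earlier results of these data known.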

Additional observations from a re-analysis of the deposited data

How the results depend on the processing

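No member was called under any of the 15 alternatives. The count of called genes over all genes, 5 in the reported fit, was 0 with upper-quartile factors (801 at an unadjusted p under 0.05), 0 with library size alone (787), 0 with limma-voom (681), 0 when genes had to average 1 CPM (523), 1 with quantile normalisation, 1 with edgeR's legacy fit, 8 with no filter on low counts and 52 with DESeq2. With the replicate number as a block it was 76, and no member was among them. The correlation of same-numbered libraries' deviations was 0.318 over 2 pairs, too few to settle whether the numbers pair the libraries, and no label says that they do. Leaving out 1 library gave 3 to 1096 called genes (3 without control 2, 4 without control 1, 188 without KO 2, 1096 without KO 1). Each of these fits leaves 1 library in a group, so its spread comes from the other group alone. Their counts of called genes are thus not comparable with that of the reported fit, and no conclusion is drawn from them. SLC35F2 was called with DESeq2 and the block. Its log2 fold change was -1.81 without KO 1 and -1.5 without KO 2.

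Library size alone moved the median of all genes to -0.10, from 0.03, and the medians of both genomes relative to it stayed within 0.12 to 0.17. Under it the difference in the mitochondrial sum was -0.014, and those of MT-ND1, MT-CO3, ATP5IF1 and TFAM were -0.12, -0.0375, -0.12 and -0.0283. With upper-quartile factors MT-ND1 was -0.0764 and ATP5IF1 -0.073, and when genes had to average 1 CPM they were -0.0349 and -0.0324. With quantile normalisation MT-ND1 was -0.17, MT-ATP6 -0.0253, MT-CO3 0, MT-ND4L -0.12, MT-ND4 -0.13, ATP5IF1 -0.10 and TFAM -0.0158. The cause of these reversals was not tested.

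Leaving out each library in turn gave -0.28 to 0.51 for the mitochondrial sum, 0.07 to 0.35 for the nuclear sum and -0.35 to 0.16 for the ratio (log2, KO minus control). Fitted differences of 38 of the 57 members changed sign. They ranged from -0.0862 to 0.11 for MT-ND1, -0.12 to 0.0233 for MT-ND2, -0.42 to 0.80 for MT-CO1, -0.41 to 0.26 for MT-CO2, -0.18 to 0.72 for MT-ATP8, -0.17 to 0.51 for MT-ATP6, -0.40 to 0.47 for MT-CO3, -0.28 to 0.50 for MT-ND4L, -0.31 to 0.49 for MT-ND4, -0.25 to 0.63 for MT-ND5, -0.22 to 0.78 for MT-ND6 and -0.0026 to 0.62 for MT-CYB. They ranged from -0.12 to 0.15 for ATP5IF1, -0.22 to 0.46 for TFAM, -0.54 to 0.15 for TWNK, -0.22 to 0.0803 for LRPPRC, -0.21 to 0.0263 for NDUFB3, -0.20 to 0.0637 for COX5A, and among genes that are not members from -0.43 to 0.18 for CHCHD10 and -11.5 to 0.16 for CHCHD2, of which -11.5 is the fit without KO 1. Among the other 20 nuclear subunit genes that changed sign were SDHA (-0.20 to 0.48), SDHB (-0.13 to 0.39), UQCRC2 (-0.20 to 0.48) and COX5B (-0.13 to 0.57).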
